A study of Mus musculus with 34 samples.

Results

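Of the 21647 genes in the deposited count table, 9 make up a set of neuroblast and interneuron genes: Dcx, Stmn2, Gad1, Gad2, Dlx1, Dlx2, Dlx5, Sp8 and Sp9. They were taken by gene symbol from the Ensembl identifiers, and all 9 were found. RNA was sequenced from mouse ependymal cells that had been grown from the lateral ventricular wall of E18.5 embryos and differentiated by 4 days without serum. Cells from Rfx1-/- embryos (n = 4) were compared with +/+ siblings (n = 4), cells from Rfx2-/- embryos (n = 6) with +/+ siblings (n = 8), and cells from Rfx3-/- embryos (n = 6) with +/+ siblings (n = 6). All groups carry the strain label C57BL/6, and every sample title also has the term OF1, which the labels do not explain. The labels say neither whether the deletions were confined to a cell type nor whether replicates were separate embryos, so p-values measure the spread between these samples, which may be technical.

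Neural stem cells of the ventricular wall give rise to ependymal cells and astrocytes, and also to neuroblasts that migrate to the olfactory bulb and become GABAergic interneurons. The homeobox factors Dlx1, Dlx2 and Dlx5 and the zinc finger factors Sp8 and Sp9 act in that interneuron lineage, and Gad1 and Gad2 encode the enzymes that make GABA from glutamate. Dcx (doublecortin) binds microtubules in migrating neuroblasts, and Stmn2 encodes a tubulin-binding protein of growing axons. RFX factors bind the X-box, a palindrome whose arm reads GTTGCC, and are best known as regulators of cilia genes in ependymal cells.

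On GRCm38 with the GENCODE M21 annotation, Gad1 (chr2:70553072-70602014, plus strand), Dlx1 (chr2:71528113-71533981, plus), Dlx2 (chr2:71543408-71546754, minus) and Sp9 (chr2:73271925-73284706, plus) lie within 2.73 Mb of one another. Dlx1 and Dlx2 are neighbours on opposite strands, 9426 bases apart. Gad2 lies elsewhere on the same chromosome (chr2:22622205-22693874, plus), Sp8 on chr12:118846329-118852576 (plus), Stmn2 on chr3:8509360-8561606 (plus), Dlx5 on chr6:6877805-6882085 (minus) and Dcx on chrX:143855842-143933311 (minus). All are protein-coding. The antisense gene Dlx1as shares 335 exon bases (6.21%) with Dlx1, and Cir1 on the opposite strand shares 270 exon bases (5.35%) with Sp9. Whether strand was used in counting is not given in the sources used here, so reads in these stretches could not be assigned to one strand.

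RefSeq promoters on GRCm38.p6, which run from 250 bases before to 50 bases after a transcript start, were available for 7 of the 9 genes and gave 10 windows. Those shown are the windows of the neighbours Dlx2 and Dlx1, whose levels varied together, and 1 of the Sp8 windows, because Sp8 was the gene whose Rfx3 knockout and wild-type values did not overlap. Each is written 5′ to 3′ on the gene's own strand (Dlx2 chr2:71546705-71547004, minus; Dlx1 chr2:71529195-71529494, plus; Sp8 chr12:118847309-118847608, plus), with capitals at matches to the motifs searched on both strands.
Dlx2: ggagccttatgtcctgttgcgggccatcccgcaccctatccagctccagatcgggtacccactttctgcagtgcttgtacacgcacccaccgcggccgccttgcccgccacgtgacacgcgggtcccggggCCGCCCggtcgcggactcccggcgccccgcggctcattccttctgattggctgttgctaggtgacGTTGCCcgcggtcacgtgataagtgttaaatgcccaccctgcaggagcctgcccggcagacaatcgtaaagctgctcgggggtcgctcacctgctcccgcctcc
Dlx1: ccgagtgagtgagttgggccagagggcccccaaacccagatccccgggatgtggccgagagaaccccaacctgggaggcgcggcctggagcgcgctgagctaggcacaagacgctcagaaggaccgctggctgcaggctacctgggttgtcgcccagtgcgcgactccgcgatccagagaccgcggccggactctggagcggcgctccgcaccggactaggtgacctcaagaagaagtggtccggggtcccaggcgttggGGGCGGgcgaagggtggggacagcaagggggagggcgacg
Sp8: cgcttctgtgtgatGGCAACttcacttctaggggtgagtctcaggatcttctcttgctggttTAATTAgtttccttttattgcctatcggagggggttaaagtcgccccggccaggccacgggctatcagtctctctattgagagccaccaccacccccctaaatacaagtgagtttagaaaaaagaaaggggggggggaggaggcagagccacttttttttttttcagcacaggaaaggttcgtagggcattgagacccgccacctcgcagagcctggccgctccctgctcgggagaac
In Dlx2 the capitals mark a GC box (GGGCGG, here on the opposite strand) that begins at position -119 and an X-box arm (GTTGCC) at position -54, counted from the transcript start. In Dlx1 they mark a GC box at position 11. In Sp8 they mark an X-box arm at position -236, read on the opposite strand, and the homeodomain core TAATTA at position -188. No other Sp8 window held either motif. The window at chr12:118846079-118846378 had no match, and that at chr12:118846983-118847282 had a GC box only. Over the 10 windows the X-box arm was present in 4 (windows of Dcx, Dlx2 and Sp8), against 12.5% of the 32851 windows in the table. The 2 Dcx windows overlap and hold the same match, so these are 3 distinct sites. TAATTA was present in 3 windows at 2 distinct sites (Dcx and Sp8), against 5.29%, and the GC box in 5 (Dlx1, Dlx2, Gad1, Sp8 and Sp9), against 35.7%. A strict form of the X-box (GTTNCC, then NN, then GGNAAC) was present in 0 of the 10 windows and in 0.451% of all windows. Looser arms and other spacer lengths were not searched, so a less exact X-box would have been missed. These are letter matches only, and the motifs do not overlap one another in the windows shown.

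Total counts ran from 18.2 M to 53.4 M reads per library. Levels are given as CPM (counts per M reads of a library) with trimmed-mean (TMM) scaling over the 34 libraries, and differences as log2 differences, knockout minus wild type, from edgeR's quasi-likelihood test. The targeted gene was lower in the knockouts of each line: Rfx1 at 25.3 ± 4.94 CPM in knockouts and 66.8 ± 10.6 CPM in wild types (log2 difference -1.40, adjusted p = 0.0687), Rfx2 at 49.2 ± 4.46 and 106 ± 14.8 CPM (-1.13, adjusted p = 1.34e-05) and Rfx3 at 39.7 ± 9.13 and 175 ± 17.4 CPM (-2.14, adjusted p = 4.16e-05). Ependymal markers were expressed in every library. The summed level of 12 of them was between 867 and 3636 CPM, and Foxj1, the master factor of motile cilia, was at least 639 CPM. Group means of that sum were 1151 to 3004 CPM. Those of 10 astrocyte markers were 3868 to 9786 CPM, and those of 12 stem cell and radial glia markers 8844 to 12295 CPM. Sums over different genes do not give the shares of cell types. Some libraries stood apart in other cell markers. Pdgfra, a receptor of oligodendrocyte precursors, was at 64.5 to 100.4 CPM in Rfx2 knockout replicates 1 to 3 and at 70.2 and 85.8 CPM in Rfx2 wild-type replicates 1 and 2, against at most 10.1 CPM in the other libraries of that line. In the Rfx3 line it was at 39.8 to 134 CPM in knockout replicates 1, 4, 5 and 6 and at 102 CPM in wild-type replicate 6, against at most 5.14 CPM in the others. The ependymal marker sum was 867 to 1061 CPM in Rfx3 knockout replicates 4 to 6 and 2353 to 2524 CPM in Rfx3 knockout replicates 1 to 3.

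Most of the 9 genes were scarce in these cultures. Per kilobase of exon, the median level over the 18 wild-type libraries was highest for Stmn2 (10.97 CPM per kilobase), followed by Dlx2 (2.48), Dlx1 (0.849), Dcx (0.229), Gad1 (0.181), Sp8 (0.104), Sp9 (0.103), Dlx5 (0.0583) and Gad2 (0.0452). Only the step between Stmn2 and Dlx2 was free of overlap over these libraries, with a lowest Stmn2 value of 6.11 and a highest Dlx2 value of 3.90 CPM per kilobase. Every other pair of neighbours in this order overlapped. Some markers of finished neurons were near or below 1 CPM: Slc32a1, the vesicular GABA transporter, reached at most 1.21 CPM, and Rbfox3, which marks mature neurons, at most 1.22 CPM. Not all neuronal genes were so low. Group means were 16.9 to 25.8 CPM for Erbb4 and 5.56 to 17.4 CPM for Reln. The sum of 36 pan-neuronal and migrating neuroblast genes had group means of 3105 to 3671 CPM. Of the excitatory neuron markers, Slc17a6 (a vesicular glutamate transporter) had at most 0.133 CPM and Neurod6 (a factor of cortical excitatory neurons) at most 0.0784 CPM. Fezf2 of the same lineage had group means of 7.28 to 10.1 CPM.

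The wild-type groups themselves differed in these genes. In a fit of all 34 libraries, 9 of 9 genes differed among the wild-type groups at an adjusted p below 0.05, where 57.7% of the 14833 genes tested did. In Rfx1 wild types 8 of 9 were higher than in Rfx2 wild types (Gad1, Gad2, Dlx1, Dlx2, Dlx5, Sp8, Sp9 and Dcx) and 0 of 9 lower, where 21.9% of all genes were higher, 23.3% lower and 45.2% called in all. Dlx5 averaged 0.486 ± 0.0936 CPM in Rfx1 wild types (n = 4) and 0.0429 ± 0.0196 CPM in Rfx2 wild types (n = 8), a log2 difference of 3.38 (SE 0.50, adjusted p = 2.17e-06). Gad2 averaged 1.05 ± 0.253 and 0.110 ± 0.0874 CPM in the same groups (log2 difference 3.20, SE 0.53, adjusted p = 1.08e-05). Stmn2 instead had its highest wild-type mean in the Rfx2 line, at 113 ± 43.6 CPM against 43.2 ± 6.26 CPM in Rfx3 wild types (log2 difference 1.39, SE 0.28, adjusted p = 0.000207).
In Rfx2 wild types 6 of 9 were lower than in Rfx3 wild types (Gad2, Sp9, Dlx1, Dlx2, Dlx5 and Dcx) and 1 of 9 higher (Stmn2), where 22.5% of all genes were lower, 24.6% higher and 47.1% called in all. Between Rfx1 and Rfx3 wild types Sp8 alone was called (log2 difference 1.38, SE 0.34, adjusted p = 0.00693), where 6.80% of all genes were higher, 6.82% lower and 13.6% called in all. The calls for Gad1 and Dcx among wild types were the weakest, with adjusted p = 0.0287 and 0.0335. Gad1 lost its call with a term for Y-linked expression (0.102) and without Rfx1 wild-type replicate 1 (0.0820) or 4 (0.0989). Dcx lost its call with the Y-linked term (0.0508), without Rfx1 wild-type replicate 1 (0.0566) and without any 1 of Rfx2 wild-type replicates 3 to 8 (0.0527 to 0.0656). No label gives a batch, so line and batch cannot be told apart in this comparison. Microglial markers also differed between the groups, with a sum over 10 genes of 427 to 1362 CPM in Rfx2 wild types, against 34.6 to 96.7 CPM in Rfx1 wild types and 65.8 to 534 CPM in Rfx3 wild types, and their part in the difference was not tested.

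**Figure D1:**
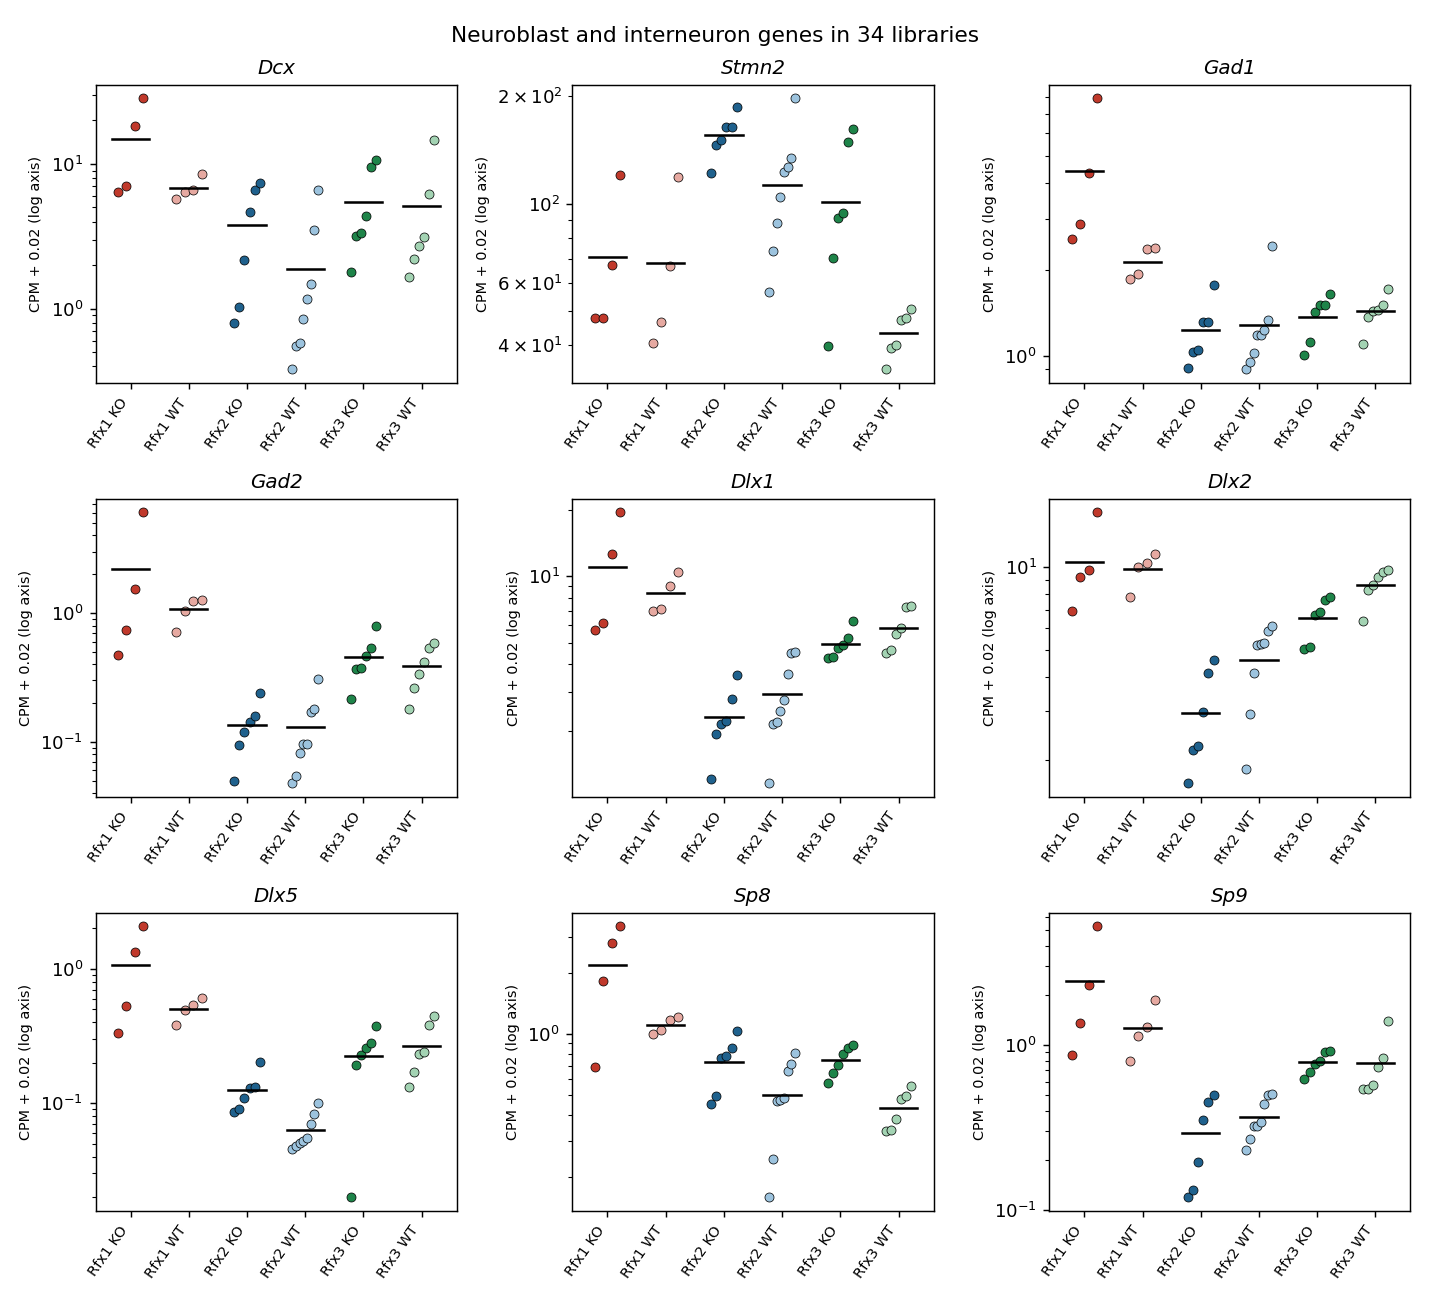
Level of each of the 9 genes in the 34 libraries (vertical log axis, CPM plus 0.02), by group; each point is 1 library, sorted by value within its group, and the bar is the group mean. Rfx1 knockout replicate 2 gives the highest point for every gene except Stmn2. The Rfx2 line has the lowest means for Dcx, Gad1, Gad2, Dlx1, Dlx2, Dlx5 and Sp9.

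In Rfx1 knockouts none of the 9 genes passed the test, although all 9 estimates were above 0 and replicate 2 held the highest knockout value of 8 of the 9 (Stmn2 was the exception). By edgeR and by DESeq2, 0 of 9 genes were called (0.00723% of the 13830 genes tested were), and every one had an adjusted p of 0.9998 by edgeR. At an unadjusted p below 0.05 there were 3 of 9 by both tools (Gad1, Sp8 and Dcx by edgeR), beside 2.03% of all genes by edgeR. The median log2 difference was 0.98 over the 9 genes and 0.003 over all genes tested.

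Among the transcription factors, Dlx1, which acts early in interneuron specification, was at 6.14, 19.4, 5.70 and 12.5 CPM in Rfx1 knockouts, against 7.12, 9.05, 10.4 and 6.98 CPM in Rfx1 wild types. Its partner Dlx2 was at 6.93, 15.8, 9.16 and 9.72 CPM in knockouts, against 7.81, 10.3, 11.1 and 9.99 CPM in wild types. For both genes the groups overlapped, and the only knockout value of Dlx2 above all wild types was that of replicate 2. Sp8, which acts in olfactory bulb interneurons, was at 1.8, 3.37, 0.673 and 2.77 CPM in knockouts, against 1.02, 1.19, 0.987 and 1.15 CPM in wild types (log2 difference 0.98, SE 0.42). Knockout replicates 1, 2 and 4 were above all wild types and replicate 3 was below them. Sp9, a relative of Sp8, was at 0.845, 5.23, 1.35 and 2.28 CPM in knockouts, against 1.85, 0.776, 1.27 and 1.11 CPM in wild types. Dlx5, a later factor of the lineage, was at 0.507, 2.06, 0.314 and 1.31 CPM in knockouts, against 0.585, 0.362, 0.517 and 0.477 CPM in wild types. In both, knockout replicates 2 and 4 were above all wild types and replicates 1 and 3 were not.

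Gad1 was the only member whose groups did not overlap in this line, at 2.53, 7.89, 2.87 and 4.32 CPM in Rfx1 knockouts, against 2.34, 1.91, 1.83 and 2.37 CPM in Rfx1 wild types (log2 difference 1.05, SE 0.35, unadjusted p = 0.0152). The groups did not overlap for 1.49% of the genes tested, with all knockouts above all wild types for 0.774% and below them for 0.716%. Gad2 was at 0.451, 6.03, 0.718 and 1.51 CPM in knockouts, against 1.02, 1.24, 1.22 and 0.696 CPM in wild types, with knockouts on both sides of the wild types. Dcx was at 6.98, 28.3, 6.33 and 18.2 CPM in knockouts, against 8.44, 6.42, 6.63 and 5.71 CPM in wild types (log2 difference 1.15, SE 0.45). Stmn2 was at 67.0, 47.6, 47.7 and 120.3 CPM in knockouts, against 119, 46.5, 40.5 and 66.6 CPM in wild types, a difference of 0.05 (SE 0.39).

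Replicates 2 and 4 of the Rfx1 knockouts carried most of these differences. In replicate 2, 8 of 9 genes were above the wild-type mean with a median log2 ratio of 1.86, and in replicate 4, 8 of 9 with a median of 0.95. In replicate 1 there were 5 of 9 (median 0.05) and in replicate 3 there were 2 of 9 (median -0.38). Without replicate 2 the estimates were 0.61 for Gad1, 0.66 for Sp8, 0.63 for Dcx, 0.54 for Dlx5 and 0.26 for Sp9. Those of Gad2, Dlx1 and Dlx2 turned to -0.19, -0.05 and -0.19, and Stmn2 was at 0.20. Replicate 2 was also the 1 knockout of 4 with expressed Y-linked genes, which 4 of 4 Rfx1 wild types had. With a term for that expression the knockout estimate would rest on replicate 2 alone, so its part in these values cannot be told apart. Other genes were high in the same library. Tubb3, a neuronal tubulin, was at 6.08, 24.5, 5.12 and 13.7 CPM in Rfx1 knockouts, against 7.86, 5.69, 5.64 and 5.21 CPM in wild types (log2 difference 1.03, SE 0.46). Pdgfra was at 3.10, 21.4, 5.21 and 4.86 CPM in knockouts, against 3.90, 4.71, 10.5 and 4.50 CPM in wild types. Olig2, another gene of the oligodendrocyte list, was at 46.4 CPM in replicate 2, within the wild-type range of 32.8 to 51.4 CPM. That list as a whole (10 genes) summed to 472 to 600 CPM in knockouts and 560 to 599 CPM in wild types. The microglial marker sum was 133, 264, 98.3 and 10.9 CPM in knockouts, against 77.0, 76.9, 96.7 and 34.6 CPM in wild types. The ependymal marker sum was 2047 to 3636 CPM in knockouts and 2619 to 3421 CPM in wild types. The part of other cell types in these values was not tested. In bulk RNA, more cells of a type and more RNA per cell cannot be told apart.

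**Figure D2:**
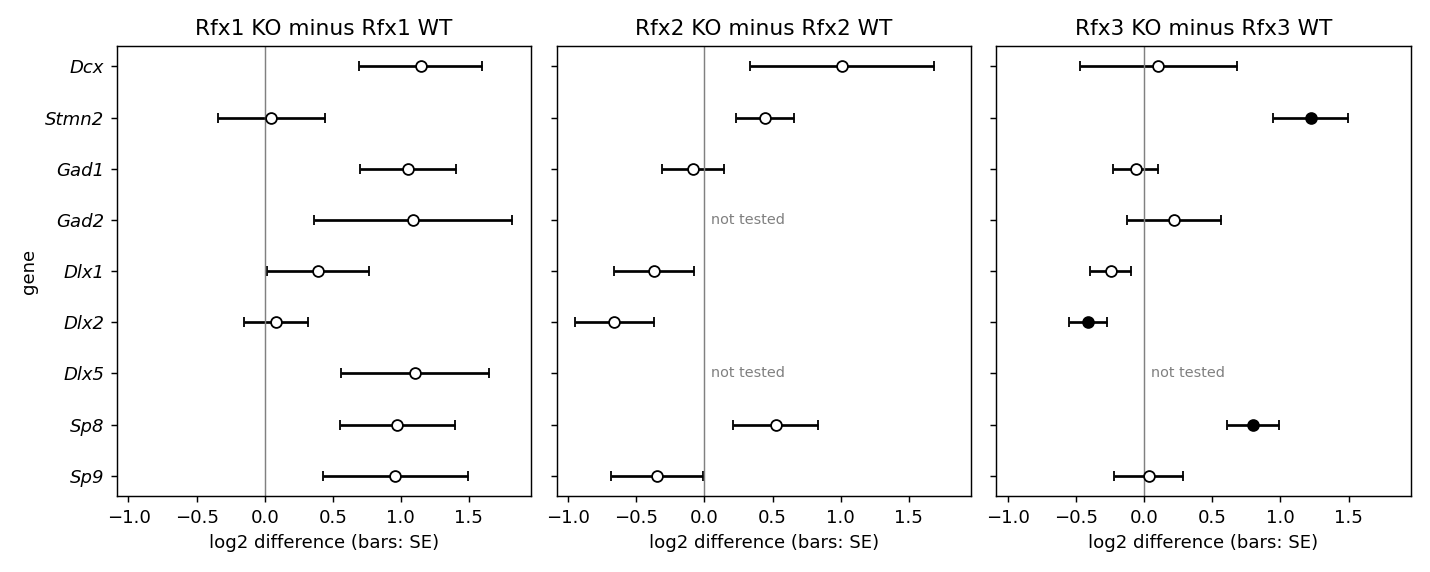
Log2 difference of each gene, knockout minus wild type, in the Rfx1, Rfx2 and Rfx3 lines (points, with bars of 1 SE); filled points are genes called at an adjusted p below 0.05 by edgeR. In the Rfx1 line all 9 points are above 0 with wide bars and none is called, in the Rfx2 line none is called, and in the Rfx3 line Stmn2 and Sp8 are called above 0 and Dlx2 below 0.

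In Rfx2 knockouts the 2 largest effects relative to their errors were a lower Dlx2 and a higher Stmn2, and neither passed the test. Of the 9 genes, 7 passed the filter on low counts, and Gad2 and Dlx5 did not. By edgeR 0 of 7 were called, where 32.3% of the 14305 genes tested were. At an unadjusted p below 0.05 there was 1 of 7 (Dlx2), beside 42.3% of all genes. By DESeq2 0 of 7 were called. No gene of the set separated the groups without overlap, as 10.5% of the genes tested did (3.58% with all knockouts above and 6.93% below).

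Dlx2 was at 1.63, 2.23, 2.15, 2.97, 4.12 and 4.60 CPM in Rfx2 knockouts, whereas the 8 Rfx2 wild types ran from 1.84 to 6.11 CPM with a median of 5.23 CPM. All 6 knockouts were below the wild-type mean of 4.57 ± 1.50 CPM (log2 difference -0.66, SE 0.29, adjusted p = 0.0932). The difference was called without Rfx2 knockout replicate 6 (-0.82, adjusted p = 0.0475), without Rfx2 wild-type replicate 1 (-0.77, adjusted p = 0.0228) and in the fit of all 34 libraries (-0.64, adjusted p = 0.0454). Over 23 alternatives its adjusted p ran from 0.0228 to 0.413. Dlx1 ran from 1.20 to 3.56 CPM in knockouts and from 1.14 to 4.52 CPM in wild types (-0.37, SE 0.30, adjusted p = 0.365). Sp9 ran from 0.0996 to 0.478 CPM in knockouts and from 0.212 to 0.481 CPM in wild types (-0.35, SE 0.34, adjusted p = 0.461). Sp8 ran from 0.432 to 1.01 CPM in knockouts and from 0.139 to 0.784 CPM in wild types (0.52, SE 0.31, adjusted p = 0.222). Both groups overlapped over most of their range for these factors. Dlx5 had 2 to 6 reads per knockout library and 1 to 3 per wild-type library. Without the filter its difference was 1.20 (adjusted p = 0.0576).

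Gad1 ran from 0.886 to 1.75 CPM in Rfx2 knockouts and from 0.878 to 2.39 CPM in Rfx2 wild types (-0.09, SE 0.23, adjusted p = 0.803). Gad2 had 1 to 6 reads per knockout library and 1 to 9 per wild-type library, and without the filter its difference was 0.03 (adjusted p = 0.976). Stmn2 was at 164, 151, 146, 122, 187 and 164 CPM in knockouts, whereas wild types ran from 56.3 to 197 CPM with a median of 114 CPM. All 6 knockouts were above the wild-type mean of 113 ± 43.6 CPM (0.45, SE 0.22, adjusted p = 0.130), and wild-type replicate 5 was the highest library of all. With the replicate number as a block, which takes same-numbered samples of this line as pairs, the difference was 0.62 and was called (adjusted p = 0.0168). It was also called without wild-type replicate 5 (0.62, adjusted p = 0.0154), in replicates 1 to 4 alone (0.85, adjusted p = 0.0127) and in replicates 1 to 3 alone (0.87, adjusted p = 0.0499), but not in the replicates numbered 4 and above (0.25, adjusted p = 0.520).

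Dcx showed the widest spread of the set in this line. It was at 4.65, 7.37, 6.55, 2.13, 0.773 and 1.0 CPM in Rfx2 knockouts, against 3.50, 6.56, 1.47, 1.15, 0.531, 0.824, 0.360 and 0.557 CPM in Rfx2 wild types (1.01, SE 0.67, adjusted p = 0.275). Dcx was higher in the knockout in 6 of 6 same-numbered pairs, and with the replicate block its difference was 0.73 (adjusted p = 0.0677). The high values were those of knockout replicates 1 to 3 and wild-type replicates 1 and 2. The same 5 libraries had the highest Pdgfra, at 64.5, 100.4, 96.2, 5.49, 5.08 and 1.78 CPM in knockouts, against 70.2, 85.8, 10.1, 2.75, 2.15, 3.80, 2.74 and 1.92 CPM in wild types. Sox10, a factor of the oligodendrocyte lineage, was at 18.4 to 23.7 CPM in those knockouts and at 13.4 and 17.3 CPM in those wild types, and at most 1.41 CPM in the other libraries of the line. The oligodendrocyte list as a whole (10 genes) summed to 318 to 707 CPM in knockouts and 411 to 665 CPM in wild types. The part of that lineage in the Dcx values was not tested.

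Beside the shares of all genes that rose (13.9%) and fell (18.4%) in Rfx2 knockouts, markers of other cell types were counted. Of 12 ependymal markers 11 fell and 0 rose, and their sum was 981 to 1275 CPM in knockouts and 1359 to 2842 CPM in wild types. Foxj1 alone was at 639 to 827 CPM in knockouts and 813 to 1466 CPM in wild types. The list includes cilia genes, a class that RFX factors regulate. Fewer ependymal cells and less RNA of these genes per cell cannot be told apart, here or in the Rfx3 line. Of 10 astrocyte markers 4 rose and 0 fell (sum 7308 to 12590 CPM in knockouts, 5728 to 9916 CPM in wild types). Among the oligodendrocyte markers tested 1 of 9 rose and 1 fell, among stem cell and radial glia markers 2 of 11 rose and 4 fell, among vascular markers 2 of 7 rose, and among choroid plexus markers 1 of 5 fell. None of 10 microglial and none of 10 proliferation markers were called by edgeR or DESeq2. At an unadjusted p below 0.05 there were 0 and 1, beside 42.3% of all genes by edgeR and 43.4% by DESeq2. The part of these cell types in the values of the 9 genes was not tested.

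**Figure D3:**
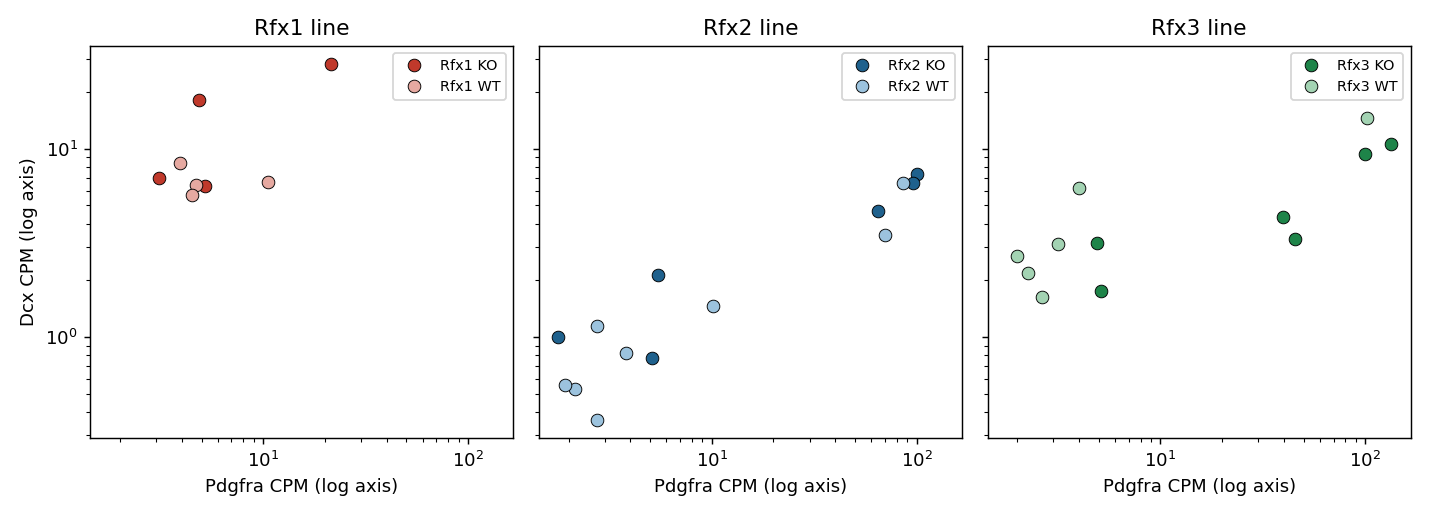
Dcx against Pdgfra, both in CPM on log axes, in the Rfx1, Rfx2 and Rfx3 lines; each point is 1 library, dark for knockouts and light for wild types. In the Rfx2 line the 5 libraries with Pdgfra above 64 CPM are those with the highest Dcx, and in the Rfx3 line the 3 with the highest Pdgfra (99.9 to 134 CPM) have the highest Dcx (9.44 to 14.6 CPM).

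In Rfx3 knockouts Stmn2 and Sp8 rose and Dlx2 fell, and the other genes did not pass the test. Of the 9 genes, 8 passed the filter and Dlx5 did not. The test called 2 of 8 higher, where 10.6% of the 14340 genes tested were, and 1 of 8 lower, where 12.9% were. Over all genes 23.5% were called, and 37.4% had an unadjusted p below 0.05. In replicates 1 to 3 alone 0 of 8 genes of the set were called by edgeR, beside 1.81% of all genes, and 3 of 8 had an unadjusted p below 0.05, beside 16.3%. In replicates 4 to 6 alone 1 of 8 was called (Stmn2), beside 41.7% of all genes.

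Stmn2 was at 70.2, 39.7, 93.9, 162, 91.3 and 149 CPM in Rfx3 knockouts, against 40.1, 47.1, 39.3, 50.6, 47.7 and 34.2 CPM in Rfx3 wild types. All knockouts but 1 were above every wild type, and knockout replicate 2 lay within the wild-type range. The mean was 101 ± 46.6 CPM in knockouts and 43.2 ± 6.26 CPM in wild types (log2 difference 1.22, SE 0.28, adjusted p = 0.00948). It was not called in replicates 1 to 4 (1.04, adjusted p = 0.156) or in replicates 1 to 3 (0.69, adjusted p = 0.313), and it was called in replicates 4 to 6 (1.59, adjusted p = 0.00310). Knockout replicates 4 to 6, with the low ependymal marker sums, had Stmn2 at 162, 91.3 and 149 CPM. In this line the ependymal sum was 2524, 2353, 2446, 1038, 1061 and 867 CPM in knockouts, against 2731 to 3356 CPM in wild types.

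Sp8 was at 0.860, 0.689, 0.628, 0.558, 0.836 and 0.782 CPM in Rfx3 knockouts, against 0.363, 0.320, 0.316, 0.536, 0.462 and 0.477 CPM in Rfx3 wild types. Every knockout was above every wild type, as for 5.65% of the genes tested (9.83% had all knockouts below and 15.5% no overlap either way). The mean was 0.725 ± 0.120 CPM in knockouts and 0.412 ± 0.0919 CPM in wild types (log2 difference 0.80, SE 0.19, adjusted p = 0.0123). These levels rest on 16 to 36 reads per knockout library and 8 to 29 per wild-type library. Sp8 was called in 18 of 21 alternatives and not in the smaller fits of replicates 1 to 4 (0.79, adjusted p = 0.145), 1 to 3 (1.13, adjusted p = 0.0869) or 4 to 6 (0.54, adjusted p = 0.136). Sp9, its relative, did not follow it, at 0.763 ± 0.119 CPM in knockouts and 0.752 ± 0.333 CPM in wild types (0.03, adjusted p = 0.947).

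Dlx2 was at 6.67, 6.89, 7.61, 5.13, 5.04 and 7.78 CPM in Rfx3 knockouts, against 8.25, 8.60, 9.75, 9.22, 9.56 and 6.36 CPM in Rfx3 wild types. All knockouts were below 5 of the 6 wild types, and wild-type replicate 6 was within the knockout range. The mean was 6.52 ± 1.19 CPM in knockouts and 8.62 ± 1.24 CPM in wild types (log2 difference -0.41, SE 0.14, adjusted p = 0.0468). The call was held in 5 of 21 alternatives. Leaving out any 1 library ended it (adjusted p = 0.0588 to 0.107), except knockout replicates 3 and 6 and wild-type replicate 6 (0.0252, 0.0419 and 0.0217), and it was lost with a term for Y-linked expression (-0.32, adjusted p = 0.0968). Y-linked genes were expressed in 4 of 6 Rfx3 knockouts and 2 of 6 Rfx3 wild types. Dlx1 was at 4.95 ± 0.738 CPM in knockouts and 5.83 ± 1.23 CPM in wild types (-0.25, SE 0.15, adjusted p = 0.254).

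The GABA-synthesising enzymes did not pass the test. Gad1 was at 1.35 ± 0.249 CPM in Rfx3 knockouts and 1.41 ± 0.201 CPM in Rfx3 wild types (-0.06, adjusted p = 0.811). Gad2 was at 0.437 ± 0.197 CPM in knockouts and 0.367 ± 0.158 CPM in wild types (0.22, adjusted p = 0.682). Dlx5 had 0 to 10 reads per knockout library and 5 to 12 per wild-type library, with a difference of -0.20 without the filter (adjusted p = 0.815). Dcx was at 4.35, 3.14, 1.76, 9.44, 10.6 and 3.32 CPM in knockouts, against 2.69, 1.64, 2.19, 3.11, 6.22 and 14.6 CPM in wild types (0.10, SE 0.58, adjusted p = 0.919). The highest Dcx values were again in the libraries with the highest Pdgfra, which was at 39.8, 4.91, 5.14, 99.9, 134 and 45.3 CPM in knockouts, against 1.99, 2.64, 2.26, 3.16, 4.01 and 102 CPM in wild types.

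Markers of other cell types were counted in Rfx3 knockouts too, where 10.6% of all genes rose and 12.9% fell. Of 12 ependymal markers 6 fell and 0 rose, of 10 astrocyte markers 5 rose (sum 3798 to 6631 CPM in knockouts, 3110 to 5927 CPM in wild types), and of 9 oligodendrocyte markers 2 rose (628 to 897 CPM in knockouts, 562 to 802 CPM in wild types). Stem cell and radial glia markers had 2 of 11 higher and 1 lower (8815 to 11546 CPM in knockouts, 8244 to 9839 CPM in wild types), proliferation markers 2 of 10 higher, vascular markers 1 of 7 higher and choroid plexus markers 4 of 5 lower. Of 10 microglial markers 0 were called by either tool. At an unadjusted p below 0.05 there were 0, beside 37.4% of all genes by edgeR and 39.5% by DESeq2. The part of these cell types in the values of Stmn2, Sp8 and Dlx2 was not tested. In Rfx1 knockouts 0 genes of any of these lists were called by either tool, beside 0.00723% of all genes by edgeR and 0.0651% by DESeq2.

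**Figure D4:**
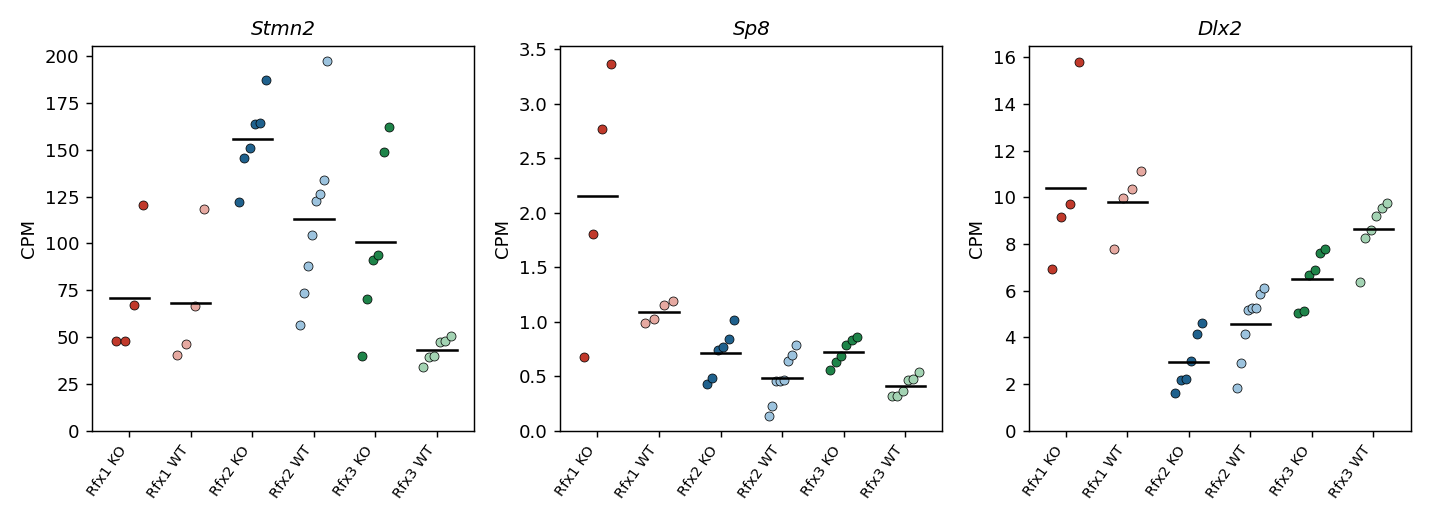
CPM of Stmn2, Sp8 and Dlx2 by group on linear axes from 0; each point is 1 library, sorted by value within its group, and the bar is the group mean. In the Rfx3 line the 6 Sp8 knockout points lie above the 6 wild-type points, 5 of 6 Stmn2 knockouts lie above all wild types, and Dlx2 knockouts lie below 5 of 6 wild types.

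The knockout effects were not shown to differ between the lines. Over the 9 genes and the 3 pairs of lines, 0 of 27 differences of effects were called in the edgeR fit of all 34 libraries, and 5 of 27 had an unadjusted p below 0.05. The share of all genes below that unadjusted p was not counted, so the 5 cannot be set against it. DESeq2 was not run on these differences. Over all genes, 0.829% of the differences between the Rfx1 and Rfx2 effects were called, 7.75% of those between Rfx1 and Rfx3 and 3.84% of those between Rfx2 and Rfx3. The lowest adjusted p was that of Gad1, whose Rfx1 effect was 1.11 above its Rfx3 effect (SE 0.37, adjusted p = 0.0572). It was called with the term for Y-linked expression (1.32, adjusted p = 0.0343), without Rfx1 knockout replicate 1 (1.29, adjusted p = 0.0316), without Rfx2 wild-type replicate 6 (1.10, adjusted p = 0.0381) and without Rfx3 knockout replicate 1 (1.14, adjusted p = 0.0455). For Stmn2 the Rfx1 effect was 1.17 below the Rfx3 effect (difference -1.17, SE 0.47, adjusted p = 0.107). That difference was called without Rfx1 knockout replicate 4 (-1.57, adjusted p = 0.0311) or Rfx3 knockout replicate 2 (-1.34, adjusted p = 0.0382).

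Across libraries, the levels of the factors and the enzymes were positively correlated, and those of Stmn2 and Dcx were correlated with them in both directions. The measure was Pearson's r of log2(CPM + 0.1) after subtraction of each group's mean, over the 34 libraries, which share scaling and depth, so it is a description with no test. All 21 pairs among the 7 Gad, Dlx and Sp genes had a positive r, from 0.13 to 0.80 with a median of 0.43. Without Rfx1 knockout replicate 2, 20 of 21 were positive, and the median was 0.22. The neighbours Dlx1 and Dlx2 had the highest value, 0.80, which was 0.77 without that library. The pairs with Stmn2 ran from -0.27 to 0.16 with a median of 0.06, and those with Dcx from -0.36 to 0.36 with a median of 0.03. Without Rfx1 knockout replicate 2 the medians were 0.16 for Stmn2 and -0.06 for Dcx, so that Stmn2 was then close to the 0.22 of the Gad, Dlx and Sp pairs. Among 72 pairs of a gene and a summed marker list treated the same way, Dcx had r = 0.73 with the oligodendrocyte list, Stmn2 had r = 0.73 with the neural stem cell and radial glia list and -0.67 with the ependymal list, and Dlx2 had r = -0.71 with the astrocyte list. Within the Rfx1, Rfx2 and Rfx3 lines the value for Stmn2 was 0.83, 0.80 and 0.62 with the stem cell list and -0.61, -0.70 and -0.74 with the ependymal list, and that for Dlx2 was -0.82, -0.77 and -0.78. That for Dcx with the oligodendrocyte list was 0.17, 0.83 and 0.63, so it was weak in the Rfx1 line. Dcx also varied with other lists. Over the 34 libraries its r was 0.61 with the proliferation list, 0.50 with the microglial list and 0.29 with the astrocyte list. Within the Rfx1, Rfx2 and Rfx3 lines these values were 0.45, 0.79 and 0.19 for proliferation and -0.02, 0.81 and 0.75 for microglia. For astrocytes they were -0.52, 0.37 and 0.73.

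**Figure D5:**
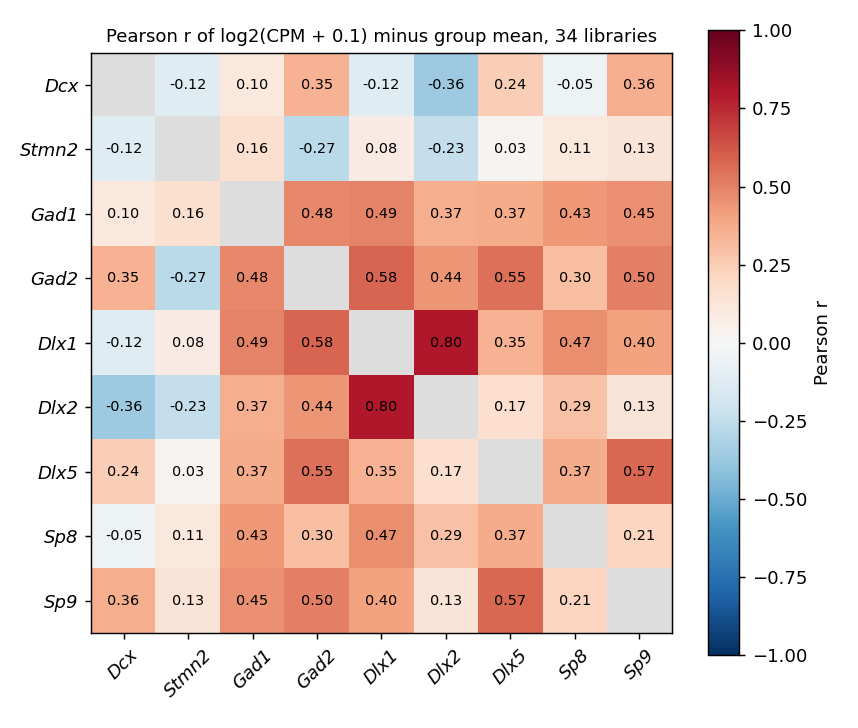
Pearson's r between the 9 genes over 34 libraries, from log2(CPM + 0.1) minus the group mean (red positive, blue negative, the value in each cell). The block of Gad, Dlx and Sp genes is positive throughout with its highest value for Dlx1 and Dlx2 (0.80), and the rows of Dcx and Stmn2 hold values of both signs.

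The 10 genes outside the set whose group-corrected levels were most like the mean of the 9 genes, of 14824 compared, had r between 0.644 and 0.756, beside a 95th percentile of 0.310 over all genes. In order they were Shisa2 (0.756), Islr2 (0.742), Rtl1 (0.730), Col22a1 (0.729), Sox11 (0.694), Celsr3 (0.688), Ntn1 (0.688), Gli1 (0.652), Phf21b (0.650) and Celf3 (0.644). Sox11 encodes a factor of immature neurons, Ntn1 the axon guidance cue netrin, and Gli1 a transcription factor that is a target of Hedgehog signalling. Without Rfx1 knockout replicate 2, Shisa2 (0.781), Gli1 (0.708) and Col22a1 (0.700) stayed among the 10 highest and the other 7 did not. Those 7 then had r from 0.489 (Celsr3, rank 144) to 0.636 (Ntn1, rank 17).

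Other neuronal genes were looked at in lists chosen for their roles, namely further ventral forebrain and interneuron factors (26 genes), GABA packaging, uptake and interneuron peptides (13), pan-neuronal and migrating neuroblast genes (36) and the excitatory lineage (12). In the Rfx1 line 0 of the 63 genes tested in the first 3 lists were called by edgeR or DESeq2, beside 0.00723% and 0.0651% of all genes. At an unadjusted p below 0.05 there were 4 and 7 of the 63, beside 2.03% and 2.17% of all genes. The median log2 difference by edgeR was 0.13 over the 63 genes and 0.003 over all genes tested. The interneuron factors Nr2f2 and Prox1 had the smallest p-values of their list, with differences of 0.49 (SE 0.13) and 0.78 (SE 0.27), and those of Npy, Erbb4, Elavl2 and Ina were 0.73, 0.33, 0.61 and 0.97. Excitatory lineage genes were tested for 2 members in each line, Fezf2 among them. By edgeR and DESeq2 0 of 2 were called in any line, with 0 at an unadjusted p below 0.05. Over all genes edgeR called 0.00723% in the Rfx1, 32.3% in the Rfx2 and 23.5% in the Rfx3 line.

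In Rfx2 knockouts 15 of 59 other neuronal genes rose and 3 fell, with a median of 0.31, where 13.9% of all genes rose and 18.4% fell with a median of 0.01. Among the interneuron factors 4 of 19 rose and 1 fell. Npas1, a transcription factor, was at 91.1 ± 16.4 CPM in Rfx2 knockouts and 64.5 ± 12.1 CPM in Rfx2 wild types (0.48, adjusted p = 0.0103), and Foxp2, a forkhead factor, at 2.14 ± 0.700 and 1.30 ± 0.282 CPM (0.69, adjusted p = 0.0165). Of the GABA and peptide list 1 of 8 rose and 1 fell. Reln, the secreted protein reelin that guides migrating neurons, was at 17.4 ± 4.03 CPM in knockouts and 8.89 ± 1.64 CPM in wild types (0.95, adjusted p = 0.000386). Pvalb, a calcium-binding protein of some interneurons, fell (-1.23, adjusted p = 0.0442), though 8 of 23 alternatives called it (leaving out 1 of 10 of the 14 libraries gave adjusted p = 0.0548 to 0.0925), and Erbb4 was at 0.40 (adjusted p = 0.0714). In the pan-neuronal list 10 of 32 rose and 1 fell, and 16 rose and 1 fell with the replicate block, where 12.6% of all genes rose and 16.8% fell. Sox11 was at 36.4 ± 2.10 CPM in knockouts and 27.4 ± 1.38 CPM in wild types (0.39, adjusted p = 6.75e-05), and Map2, a dendritic microtubule protein, at 824 ± 19.3 and 628 ± 41.0 CPM (0.37, adjusted p = 7.31e-05). Cd24a, which ependymal cells and neuroblasts both carry, fell to 165 ± 18.9 CPM in knockouts, against 339 ± 44.3 CPM in wild types (-1.06, adjusted p = 1.93e-05).

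In Rfx3 knockouts 12 of 65 other neuronal genes rose and 5 fell, with a median of 0.21, where 10.6% of all genes rose and 12.9% fell with a median of 0.02. In replicates 1 to 3 alone 5 of 62 rose and 0 fell, where 0.416% of all genes rose and 1.4% fell. In replicates 4 to 6 alone 18 of 65 rose and 6 fell, where 19.0% of all genes rose and 22.7% fell. Among the interneuron factors 2 of 23 rose, among them Six3, a forebrain homeobox factor, at 46.1 ± 10.1 CPM in Rfx3 knockouts and 32.1 ± 3.28 CPM in Rfx3 wild types (0.52, adjusted p = 0.0147). Lhx6, a factor of cortical interneurons from the medial ganglionic eminence, was at -0.89 (adjusted p = 0.0635). Of the GABA and peptide list 1 of 8 rose and 2 fell. Reln was at 13.7 ± 2.80 CPM in Rfx3 knockouts and 8.48 ± 1.29 CPM in Rfx3 wild types (0.69, adjusted p = 0.00920). The calcium-binding proteins Calb1 (-1.46, adjusted p = 0.0150) and Calb2 (-2.63, adjusted p = 0.0174) fell. Calb2 was at 0.172 ± 0.241 CPM in knockouts and 1.08 ± 0.278 CPM in wild types. In the pan-neuronal list 9 of 34 rose and 3 fell. Gng3, a neuronal G protein subunit, was at 7.10 ± 2.28 CPM in knockouts and 2.20 ± 0.255 CPM in wild types (1.69, adjusted p = 0.000732). Mapt, the microtubule protein tau, was at 39.0 ± 5.73 CPM in knockouts and 20.2 ± 3.23 CPM in wild types (0.94, adjusted p = 0.000781). Map2 fell to 404 ± 54.4 CPM in knockouts, against 580 ± 26.1 CPM in wild types (-0.53, adjusted p = 0.00284). Map2 was called in opposite directions in the Rfx2 and Rfx3 lines, and its 2 effects differed in the fit of all 34 libraries (Rfx2 minus Rfx3 0.91, SE 0.10, adjusted p = 1.37e-07).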

How the data were processed

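Bulk RNA sequencing (RNeasy columns, TruSeq libraries, per the labels' protocols) was given for 34 samples. The deposited table held unnormalized read counts for each Ensembl identifier in every sample. The submitters' processing notes name CASAVA 1.8.2, STAR 2.4, featureCounts 1.4.6 and GRCm38; settings and strand were not stated in what was used here. Of 21647 identifiers, 21583 matched GENCODE M21.

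Groups and replicate numbers came from the sample titles. For each line a separate model was fitted in edgeR 4.0.16 (R 4.3.3) after filterByExpr (minimum count 10, minimum total 15) and TMM scaling, with knockouts tested against wild types by the quasi-likelihood F test and Benjamini-Hochberg adjustment over all genes kept (called: adjusted p below 0.05). Standard errors were derived from that F. Differences between lines and among wild types came from 1 fit of all 34 libraries. The test was checked on simulated counts. Levels are CPM with TMM factors over all libraries, and those of genes with few reads are limited by counting error. No 2 replicates agreed within counting error (85 pairs compared, chi-squared per degree of freedom at least 4.01).

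The 9 genes and the gene lists were chosen with earlier results of these data known. Beside the 9 genes, the text names, from each other neuronal list, up to 3 genes with the smallest p in each line, the 10 genes most like the mean of the 9, and the targeted genes; Tubb3 and Ina fall under this rule in the Rfx1 line. Some genes that this rule names are not reported here. Foxj1, Pdgfra, Sox10, Slc32a1, Rbfox3, Slc17a6 and Neurod6 serve as cell markers. Replicate numbers in the Rfx2 line were taken to pair the samples, since same-numbered knockouts and wild types deviated together in 6 of 6 pairs (r from 0.14 to 0.59). Only 3 of 6 knockouts correlated best with their own number, and no label pairs the samples, so this pairing is an assumption. Alternatives were DESeq2 1.42.0, RLE scaling, no filter, 1 fit of all libraries, a replicate block, a term for Y-linked expression, replicates 1 to 4 only and leaving out each library; fits of replicates 1 to 3 and of replicates 4 and above were chosen after seeing the data.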

Additional observations from a re-analysis of the deposited data

Results flagged for a closer look

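Among 54 groups of 4 or more libraries examined (9 genes in 6 groups), 3 held a library far from the others of its group; by chance about 1 in 20 groups would. Dcx was at 14.6 CPM in Rfx3 wild-type replicate 6, with the other wild types of that line at 1.64 to 6.22 CPM. Gad1 was at 2.39 CPM in Rfx2 wild-type replicate 6, with the other wild types at 0.878 to 1.31 CPM. Sp9 was at 1.39 CPM in Rfx3 wild-type replicate 5, with the other wild types at 0.519 to 0.816 CPM.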

How the results depend on the processing

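Depth limits Gad2, Dlx5, Sp8 and Sp9, whose values rest on few reads. In the Rfx1 line the single gene called became 9 with DESeq2, 2 without the filter, 6 in the fit of all libraries and 0 with the replicate block or the Y-linked term (0 to 9 when 1 library was left out). In the Rfx2 line 4626 genes were called, 2748 in replicates 1 to 4 and 1050 in replicates 1 to 3 (3974 to 5270 leaving out 1 library), and 1 of the 9 genes, against 0, in the fit of all libraries, with the block, in replicates 1 to 4 and in replicates 1 to 3 (0 to 1 leaving out 1 library). In the Rfx3 line 3374 were called, 5367 in the fit of all libraries, 2205 with the replicate block, 194 in replicates 1 to 4, 257 in replicates 1 to 3 and 6041 in replicates 4 to 6. Leaving out 1 library gave 2139 (wild-type replicate 3) to 5549 (knockout replicate 3). Of the 9 genes 3 were called, 0 in replicates 1 to 4 or 1 to 3, 1 in replicates 4 to 6 and 2 to 3 leaving out 1 library. Differences between lines went from 0 to 1 with the Y-linked term and were 0 to 1 leaving out 1 library, and 7 to 9 genes differed among wild types. Fits of part of the replicates had fewer samples; the cause of the other changes was not tested. Replicate numbers in the Rfx1 and Rfx3 lines were not taken to pair samples (r from -0.07 to 0.36 in 4 pairs and from -0.34 to 0.20 in 6 pairs). In these lines 2 of 4 and 1 of 6 knockouts correlated best with their own number. There the block called 0 of 9 genes (Rfx1) and 2 (Rfx3, Dlx2 at -0.42, adjusted p = 0.122). In the Rfx2 line, the block changed no other call of the 9 genes.

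Directions turned for these small differences. With the Y-linked term they were -0.50 for Stmn2 (Rfx1, where the estimate then rests on knockout replicate 2 alone), -0.24 for Dcx (Rfx3), and 0.047 for Gad1 and 0.061 for Gad2 in the Rfx2 minus Rfx3 difference. In replicates 1 to 4 of the Rfx2 line, Gad1 was at 0.16 and Sp9 at 0.0050; in replicates 1 to 3, Sp9 was at 0.033 and Fezf2 at 0.0010; and in replicates 4 and above Gad1 was at 0.065. In Rfx3 replicates 4 to 6, Gad2 was at -0.45, Sp9 at -0.26, Dcx at -0.035 and Fezf2 at -0.011. Leaving out 1 library gave ranges that crossed 0 in the Rfx1 line for Gad2 (-0.19 to 1.42), Dlx1 (-0.045 to 0.61), Dlx2 (-0.19 to 0.23), Stmn2 (-0.33 to 0.46) and Fezf2 (-0.042 to 0.17). They crossed 0 in the Rfx2 line for Gad1 (-0.21 to 0.12), and in the Rfx3 line for Gad1 (-0.13 to 0.014), Sp9 (-0.060 to 0.28) and Dcx (-0.20 to 0.80). For differences between lines, they crossed 0 for Gad2 (-0.25 to 1.39), Dlx5 (-0.68 to 0.19) and Dcx (-0.54 to 0.45) in Rfx1 minus Rfx2, for Gad2 (-0.42 to 1.18) and Sp8 (-0.13 to 0.48) in Rfx1 minus Rfx3, and for Gad1 (-0.18 to 0.16), Gad2 (-0.49 to 0.17) and Dlx1 (-0.32 to 0.010) in Rfx2 minus Rfx3.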
